A study of Mus musculus with 30 samples.

Results

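Long intergenic noncoding RNAs (lincRNAs) of adult mouse testis were compared between animals homozygous and heterozygous for the WLA allele of Ythdc2, whose product, a helicase of the YTH family, acts on RNA and is required for germ cells to proceed through meiosis. The members are the features annotated as lincRNA in the adult table of read counts whose mean over the 6 adult libraries reached 1 CPM (counts scaled to a library's total). This rule kept 1186 of the 5629 lincRNA features, among 55566 features in all, and 1275 lincRNA features had no read in any of the 6 libraries. Members were thus selected on their level over both genotypes together, with no use of the difference between them.

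The adult libraries came from whole testis of C57BL/6J mice, 3 of genotype WLA/WLA and 3 of genotype WLA/+. In each genotype 2 animals were 24 weeks old and 1 was 20 weeks old. The labels do not spell out what the WLA allele changes, and every adult animal carried at least 1 copy of it, so no library of adult testis without the allele enters the comparison. The other 24 of the 30 libraries of the series are total RNA and ribosome footprints of juvenile testis, from knockout animals and their controls, whose tables hold no lincRNA.

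A lincRNA is a transcript of a gene that lies apart from protein coding genes and holds no long reading frame, often spliced and capped like an mRNA. Testis transcribes more such genes than other organs, mostly in meiotic and postmeiotic germ cells, and few of them have a known role. Some hosts of small RNAs and some architectural RNAs of the nucleus, such as Malat1 and Neat1, carry the same annotation.

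The annotation was checked against RefSeq by symbol. A RefSeq entry was found for 862 members, of which 840 were lncRNA and 10 were protein coding, the others being pseudogenes of several kinds and 1 of another class. The symbols were 504 RIKEN clone names, 641 Gm numbers and 41 others, so that most members carry a provisional name. At the threshold, Gm40773, Gm40348 and Gm47782 lay just inside with 1.003, 1.004 and 1.005 CPM, and Gm36017, 1700086O06Rik and 4933431M02Rik lay just outside with 0.997, 0.996 and 0.995 CPM.

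Promoter sequences are shown for 4 members whose level passed the test between genotypes and for C030037D09Rik, whose mean was the same in both genotypes to within 0.001 on the log2 scale. Each runs from 250 bases before to 50 bases after the RefSeq start, on the transcribed strand, in the assembly GRCm38.p6 (RefSeq; the same assembly as mm10), with each CpG dinucleotide in capitals. 1700063H04Rik (chr6:122391129-122391428, plus strand) and Mir670hg (chr2:94265054-94265353, minus strand) held 7 CpG each, AY702103 (chr17:50238958-50239257, plus strand) held 1 and Gm34549 (chr7:68487821-68488120, plus strand) held 0. C030037D09Rik (chr11:88718393-88718692, plus strand) held 42, the most of the promoters shown. Gm5922, whose log2 fold change was -0.01, held 4, within the range of the members that passed. RefSeq lists 4 starts for Mir670hg, and only 1 of them is printed.
1700063H04Rik: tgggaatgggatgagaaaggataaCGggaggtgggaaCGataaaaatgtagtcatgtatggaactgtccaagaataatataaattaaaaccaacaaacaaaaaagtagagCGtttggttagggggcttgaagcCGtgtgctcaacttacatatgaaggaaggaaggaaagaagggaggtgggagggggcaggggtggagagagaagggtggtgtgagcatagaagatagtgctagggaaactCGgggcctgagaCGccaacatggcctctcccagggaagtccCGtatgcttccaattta
AY702103: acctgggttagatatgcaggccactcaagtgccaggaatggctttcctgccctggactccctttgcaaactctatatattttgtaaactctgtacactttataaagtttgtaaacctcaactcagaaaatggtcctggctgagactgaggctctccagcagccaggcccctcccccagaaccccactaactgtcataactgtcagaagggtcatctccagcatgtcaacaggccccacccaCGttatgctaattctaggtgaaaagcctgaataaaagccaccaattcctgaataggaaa
Gm34549: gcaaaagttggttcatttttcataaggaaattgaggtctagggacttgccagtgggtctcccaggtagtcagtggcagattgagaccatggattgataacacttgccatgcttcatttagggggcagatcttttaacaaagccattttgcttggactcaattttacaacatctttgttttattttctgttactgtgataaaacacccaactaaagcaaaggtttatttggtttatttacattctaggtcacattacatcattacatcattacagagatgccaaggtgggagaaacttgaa
Mir670hg: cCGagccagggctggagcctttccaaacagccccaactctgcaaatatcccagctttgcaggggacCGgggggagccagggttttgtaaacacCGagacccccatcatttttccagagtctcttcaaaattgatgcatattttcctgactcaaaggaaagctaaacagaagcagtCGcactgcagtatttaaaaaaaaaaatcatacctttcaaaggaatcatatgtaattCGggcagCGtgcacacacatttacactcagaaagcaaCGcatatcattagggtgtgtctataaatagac
C030037D09Rik: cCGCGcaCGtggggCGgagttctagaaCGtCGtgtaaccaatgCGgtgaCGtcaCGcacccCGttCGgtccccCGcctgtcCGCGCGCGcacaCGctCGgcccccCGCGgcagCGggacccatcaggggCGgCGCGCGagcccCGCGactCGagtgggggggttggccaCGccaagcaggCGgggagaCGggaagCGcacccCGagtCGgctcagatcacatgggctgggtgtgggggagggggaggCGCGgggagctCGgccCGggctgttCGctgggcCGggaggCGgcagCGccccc

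Mir670hg is the host gene of a microRNA, whose hairpin lies inside its span on the same strand. Both mature forms are shown with the seed, bases 2 to 8, in capitals (RefSeq, GRCm38.p6). The seeds of both arms differ. Mature microRNAs were not measured in these libraries.
mmu-miR-670-5p: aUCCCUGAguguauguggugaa
mmu-miR-670-3p: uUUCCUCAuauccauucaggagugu

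The adult libraries held 33331987 to 40129676 counted reads in WLA/WLA testis and 36161501 to 43707798 in WLA/+ testis. The smallest count of any member in any library was 20 reads, and all 1186 members passed the filter on low counts that left 22446 features for the test. The columns of the table name the genotype and not the animal, so that age could not be matched to a library. Replicates were taken as separate animals because the labels number the animals. Differences between libraries of whole tissue cannot tell fewer cells of a type from less RNA per cell.

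The 3 WLA/+ libraries did not lie together in the lincRNAs. For this comparison CPM was scaled between libraries with TMM factors. For each member the log2 level of a library, log2(CPM + 0.1), was set against the mean of all 6 libraries. The median of these deviations was taken over the 1186 members. It was -0.10, -0.06 and -0.02 in WLA/WLA libraries 1 to 3, against -0.06, 0.10 and 0.16 in WLA/+ libraries 1 to 3, numbered as in the deposited columns. WLA/+ library 1 therefore lay within the range of the homozygous libraries, while the other two WLA/+ libraries lay above all of it. It was the lowest of the 3 WLA/+ libraries for 869 members (73.3%) and lay below the homozygous mean for 588 (49.6%), as against 249 for WLA/+ library 2 and 210 for WLA/+ library 3. The main counts and medians below are given with and without WLA/+ library 1. That library was singled out on the levels of these same members, so leaving it out widens their difference between genotypes. Results without it are descriptions and no independent support. Which of the WLA/+ libraries is the unusual one cannot be told from these values. The labelled genotype of a library cannot be checked from these counts, since they hold no base of the allele.

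**Figure D1:**
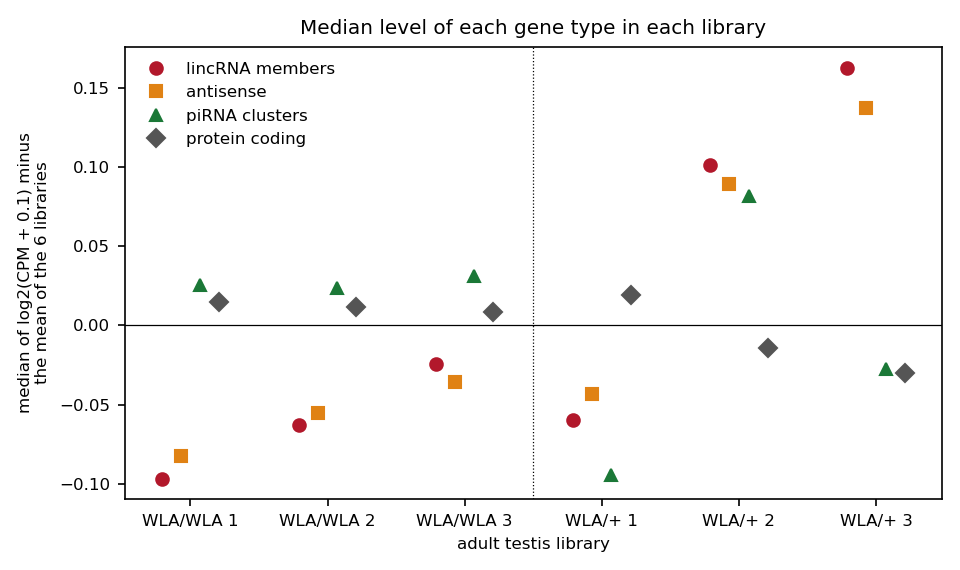
Median over features of log2(CPM + 0.1) minus the mean of the 6 libraries (y axis), for each of the 6 adult libraries (x axis), WLA/WLA left and WLA/+ right, by gene type (features with a mean CPM of at least 1). CPM was scaled by TMM. The lincRNA and antisense points lie below 0 in all 3 WLA/WLA libraries and in WLA/+ library 1. They lie above 0 in WLA/+ libraries 2 and 3, while protein coding medians stay between -0.03 and 0.02.

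Over the 6 libraries the members had a median level of 3.22 CPM and a range of 1.003 to 966.6 CPM. There were 373 members under 2 CPM, 218 at 10 CPM or more and 6 at 100 CPM or more. CPM is not divided by transcript length, so it says how many reads a member took and not how its level ranks among genes. Members together took 0.960%, 0.975% and 1.004% of all counts in the WLA/WLA libraries and 0.971%, 1.09% and 1.12% in the WLA/+ libraries. These are means of 0.980% ± 0.0225 in WLA/WLA testis and 1.06% ± 0.0789 in WLA/+ testis (SD, n = 3 each), and WLA/+ library 1 lay among the homozygous libraries. The difference of means, -0.0813 percentage points, was -0.126 without WLA/+ library 1 and -0.0518 without WLA/+ library 3.

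The member with the most reads was 4930571K23Rik, at chr7:125368861-125371013, which RefSeq lists as protein coding. It had 871, 900.4 and 919 CPM in WLA/WLA testis and 992, 1010 and 1108 CPM in WLA/+ testis. These are scaled between libraries with TMM factors, as are all CPM of single members by library or genotype from here on. Means of members over the 6 libraries are not scaled in this way. All homozygous values lay below all heterozygous values, but the difference of -0.21 ± 0.05 (log2, SE) did not pass the test across all features (edgeR quasi-likelihood, adjusted p = 0.122). Next by reads came 4930449C09Rik with 336 CPM on average, Rbakdn with 334, Gm2762 with 161, AY702103 with 141 and 1700009J07Rik with 138.3. Among these 5, Rbakdn averaged 339 ± 9.21 CPM in WLA/WLA testis and 328 ± 30.5 CPM in WLA/+ testis (SD, n = 3 each), and the genotypes overlapped. The remaining 6 of the 12 members with most reads were Gm5922, C030037D09Rik, 4933427I04Rik, Malat1, Gm29825 and 1700018B24Rik, with means of 82.1 to 97.4 CPM. RefSeq lists Gm29825 as protein coding and 1700018B24Rik as a transcribed pseudogene. Only AY702103 passed the test among the 12. The RefSeq span of Gm5922 overlaps that of Rpsa, a gene of the small ribosomal subunit. That of Gm2762 overlaps Gm38564, which RefSeq lists as protein coding. Since the strand setting of the counting is not given in the sources used here, reads of such pairs cannot be told apart.

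Between genotypes, 10 of the 1186 members (0.843%) passed an adjusted p of 0.05, 2 higher and 8 lower in WLA/WLA testis (edgeR quasi-likelihood test, Benjamini-Hochberg adjustment over 22446 features). Over all features 53 passed, or 0.236%, with 0.0936% higher and 0.143% lower. The 2 that were higher are Mir670hg, the microRNA host, and Gm11535. The 8 that were lower are 1700063H04Rik, Gm32975, Gm31182, Gm33340, 4930556C24Rik, Gm34549, Gm19589 and AY702103. None of these 8 carries a functional name. Without WLA/+ library 1, set aside for its levels in these same members, the same fit called 188 members, 7 higher and 181 lower. All 10 were among them, which is no independent support. Over all 22910 features of that fit it called 1917 (8.37%), 4.59% higher and 3.78% lower. With any one of the other five libraries left out it called between 0 and 2 members.

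**Figure D2:**
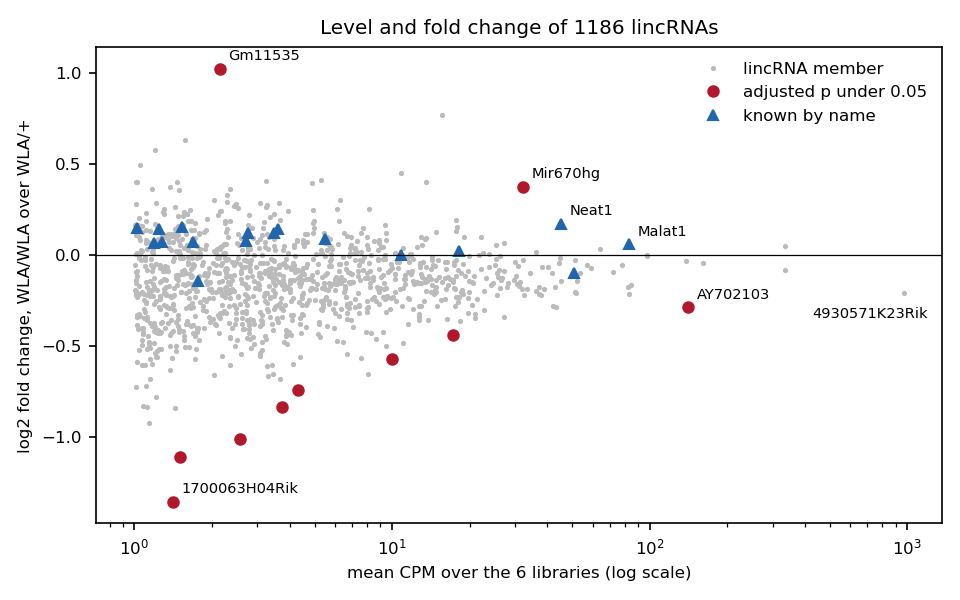
Log2 fold change of each of the 1186 members, WLA/WLA over WLA/+ (y axis), against its mean CPM over the 6 libraries on a log scale (x axis). Red points passed an adjusted p of 0.05 (edgeR), 2 above and 8 below 0, and blue triangles are the 17 members known by name, none of which passed. Most grey points lie below 0 at every level.

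Of the members that fell, 1700063H04Rik had the largest difference. It lies at chr6:122391379-122392687, and the nearest protein coding gene is Phc1, 51152 bases away, which encodes a polycomb protein. It had 0.745, 0.753 and 0.879 CPM in WLA/WLA testis, from 30, 25 and 34 reads, against 1.73, 2.35 and 2.005 CPM in WLA/+ testis, from 67, 104 and 72 reads. The genotypes did not overlap, and the log2 fold change was -1.36 ± 0.19 (SE; edgeR adjusted p = 0.0203). Phc1 itself had a log2 fold change of -0.01 ± 0.04 (SE). Gm32975, which has no RefSeq entry under this symbol, had 1.07, 0.813 and 0.956 CPM in WLA/WLA testis and 2.22, 2.03 and 1.92 CPM in WLA/+ testis. Its log2 fold change was -1.11 ± 0.17 (SE; edgeR adjusted p = 0.0262), again with no overlap.

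Gm31182, at chr10:114875888-114882520, had closely spaced values within each genotype. Its level was 1.69, 1.69 and 1.73 CPM in WLA/WLA testis and 3.38, 3.46 and 3.45 CPM in WLA/+ testis, a log2 fold change of -1.01 ± 0.13 (SE; edgeR adjusted p = 0.0105). WLA/+ library 1 stood with the other two heterozygous libraries for this gene. For Gm33340, at chr12:42967041-43034217, the values were 2.71, 2.53 and 2.77 CPM in WLA/WLA testis and 4.85, 3.93 and 5.60 CPM in WLA/+ testis, a log2 fold change of -0.84 ± 0.14 (SE; edgeR adjusted p = 0.0407). 4930556C24Rik lies at chr16:85819211-85826772, 16098 bases from Adamts1, which encodes a secreted protease. It gave 2.81, 3.55 and 3.31 CPM in WLA/WLA testis and 5.42, 5.04 and 5.68 CPM in WLA/+ testis. That is a log2 fold change of -0.74 ± 0.12 (SE; edgeR adjusted p = 0.0328), and Adamts1 had -0.04 ± 0.24 (SE). In all 3 of these members the lowest heterozygous library lay above the highest homozygous one.

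The 3 other members that fell had more reads and smaller differences. Gm34549, at chr7:68488071-68490897, is the member whose promoter above holds no CpG. It measured 8.19, 8.34 and 7.63 CPM in WLA/WLA testis, against 11.4, 11.9 and 12.6 CPM in WLA/+ testis, with a log2 fold change of -0.57 ± 0.08 (SE; edgeR adjusted p = 0.0205). Gm19589, at chr1:88551517-88562166, was at 15.3, 13.7 and 14.9 CPM in WLA/WLA testis and 18.7, 20.0 and 20.97 CPM in WLA/+ testis, with a log2 fold change of -0.44 ± 0.08 (SE; edgeR adjusted p = 0.0407). The values of AY702103 were 126, 128 and 128 CPM in WLA/WLA testis and 150, 157 and 159 CPM in WLA/+ testis, each from 4244 reads or more. Its log2 fold change was -0.29 ± 0.04 (SE; edgeR adjusted p = 0.0246). AY702103, at chr17:50239208-50246316, lies 33077 bases from Dazl, which encodes an RNA-binding protein of germ cells and whose log2 fold change was 0.06 ± 0.05 (SE). Here as well no homozygous value reached a heterozygous one.

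Of the members that rose, Mir670hg had 36.4, 37.0 and 35.7 CPM in WLA/WLA testis and 27.1, 27.2 and 29.7 CPM in WLA/+ testis. The genotypes did not overlap, and the log2 fold change was 0.37 ± 0.06 (SE; edgeR adjusted p = 0.0271). It spans chr2:94160636-94265103. Its nearest protein coding gene is Hsd17b12, 2727 bases away, which encodes an enzyme of long fatty acid synthesis and had a log2 fold change of 0.09 ± 0.08 (SE). Gm11535, with no RefSeq entry under this symbol, had 2.98, 2.50 and 3.10 CPM in WLA/WLA testis, from 120, 83 and 120 reads. In WLA/+ testis it had 1.39, 1.20 and 1.67 CPM, from 54, 53 and 60 reads. Its log2 fold change was 1.02 ± 0.17 (SE; edgeR adjusted p = 0.0309). Both members were higher in every homozygous library than in any heterozygous one.

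**Figure D3:**
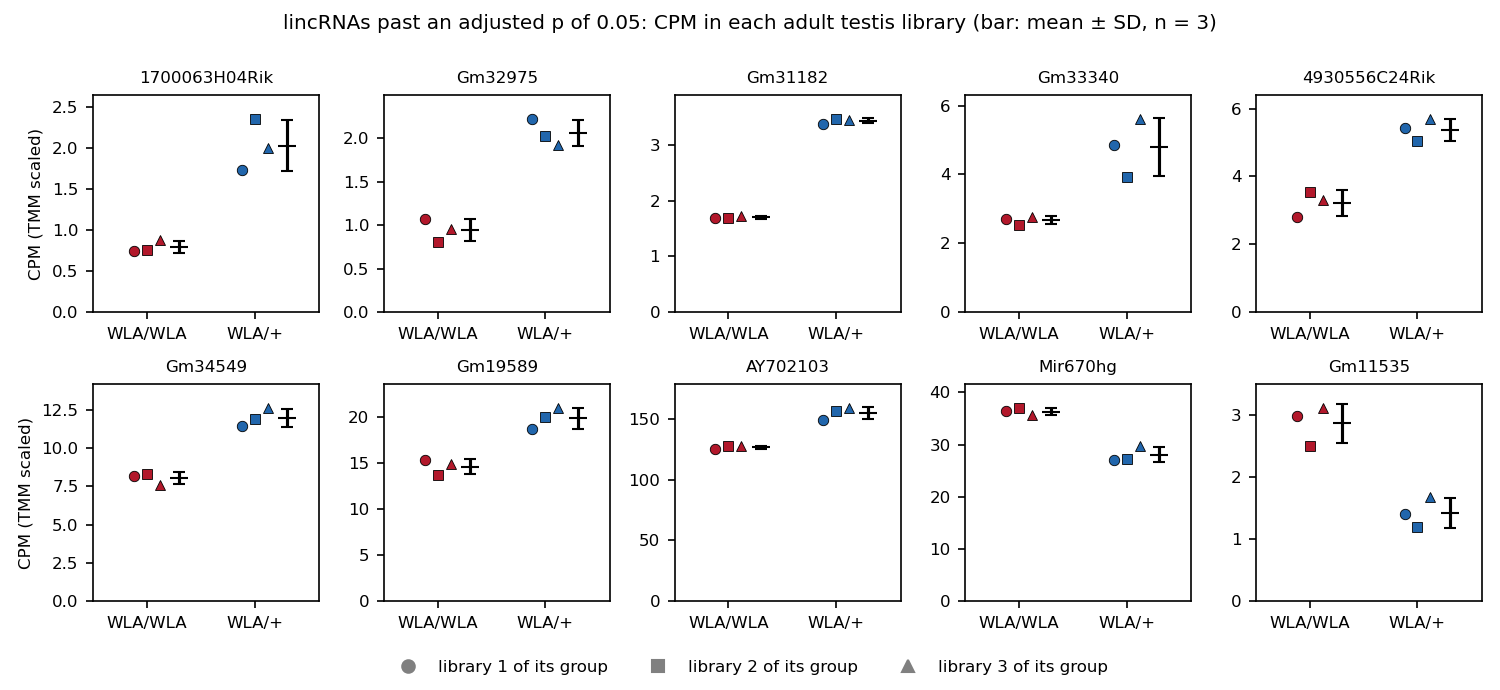
CPM scaled by TMM (y axis, from 0) of the 10 members that passed an adjusted p of 0.05, in each WLA/WLA library (red, left) and each WLA/+ library (blue, right), with mean ± SD (n = 3) as black bars and 1 marker shape for each library of a group. In every panel the groups do not overlap: Mir670hg and Gm11535 are higher in WLA/WLA testis and the other 8 are lower.

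All 10 kept their direction in each of the 6 fits that left out 1 library. Past the threshold they stayed without WLA/+ library 1 only, except Gm31182 and Mir670hg, which also passed without WLA/+ library 3. The largest adjusted p over these fits ran from 0.157 for Gm31182 to 0.314 for Gm19589 (edgeR). The authors' deposited table of the same libraries, made with DESeq2, calls 29 of the 1124 members for which it gives an adjusted p, 4 higher and 25 lower, beside 195 of 17149 features (1.14%). These 29 include the 10 above. DESeq2 run on the same counts also called 29 members, 4 higher and 25 lower, beside 1.11% of all features (0.459% higher, 0.654% lower). At an adjusted p of 0.1 edgeR called 27 members, beside 0.708% of all features. In the authors' deposited table AY702103 has a log2 fold change of -0.29 with an adjusted p of 0.000149, Gm34549 has -0.57 with 0.000195 and Mir670hg has 0.38 with 0.000325. 4930571K23Rik is at -0.21 with 0.0338 in the authors' deposited table. Mir9-3hg, host of a copy of miR-9 and named here after its values were seen, is at 0.40 with 0.0163 in the authors' deposited table. It did not pass the edgeR test (edgeR adjusted p = 0.0877).

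Among members that did not pass the edgeR test, the homozygous libraries lay wholly below the heterozygous ones most widely for Gm44947, 4930430F21Rik, Gm50201, Gm32441 and Gm49736. Their log2 fold changes were -0.93, -0.84, -0.84, -0.83 and -0.78, with edgeR adjusted p from 0.0916 to 0.156 and means of 1.08 to 1.44 CPM. In Gm44947 the level was 0.621, 0.813 and 0.931 CPM in WLA/WLA testis and 1.52, 1.54 and 1.42 CPM in WLA/+ testis. On the other side, the homozygous libraries lay wholly above for Bc1, Gm49978, Gm27017, 4930444F02Rik and Gm20554, with log2 fold changes of 0.77, 0.63, 0.45, 0.41 and 0.41 and edgeR adjusted p from 0.0805 to 0.346. Bc1 is a short cytoplasmic RNA made by RNA polymerase III and best known from neurons. It had 22.0, 17.98 and 19.4 CPM in WLA/WLA testis and 16.7, 14.01 and 3.93 CPM in WLA/+ testis, and WLA/+ library 3 was far below the other five. Of all members, 269 (22.7%) had every homozygous library below every heterozygous one and 36 (3.04%) had every one above, beside 10.3% and 8.99% of the features tested.

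The lincRNAs known by name, those on a list of 79 symbols, gave 17 members. Of these 17, 14 were above 0 and 3 below, with a median log2 fold change of 0.08. None passed the edgeR test or that of DESeq2, and 0 had an unadjusted p under 0.05 by either tool. Without WLA/+ library 1 the median was 0.04, 7 of the 17 were below 0 and again none passed (edgeR, with 0 at an unadjusted p under 0.05). Their signs come from small differences, and some turn with 1 library left out. Malat1, a nuclear RNA of splicing speckles, had 70.1, 79.8 and 105 CPM in WLA/WLA testis and 59.5, 105 and 80.6 CPM in WLA/+ testis, and the genotypes overlapped over most of their range. Its log2 fold change was 0.06 ± 0.17 (SE; edgeR adjusted p = 0.918). Neat1, the scaffold of paraspeckles, had 51.2, 46.3 and 46.0 CPM in WLA/WLA testis and 32.9, 52.1 and 42.4 CPM in WLA/+ testis. Its difference of 0.17 ± 0.12 (log2, SE) did not pass either, and the lowest value belonged to WLA/+ library 1.

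Of the imprinted genes, Meg3 averaged 1.21 ± 0.335 CPM in WLA/WLA testis and 1.17 ± 0.158 CPM in WLA/+ testis (SD, n = 3 each). Mirg, a host of many microRNAs in the same imprinted region as Meg3, averaged 10.8 ± 0.459 CPM in WLA/WLA testis and 10.8 ± 1.16 CPM in WLA/+ testis. H19, whose transcript comes from the maternal copy, averaged 1.31 ± 0.228 CPM in WLA/WLA testis and 1.18 ± 0.0862 CPM in WLA/+ testis. The genotypes overlapped for all 3. Hosts of small nucleolar RNAs were 5 members, Snhg6, Snhg12, Snhg15, Snhg18 and Snhg20, with log2 fold changes of 0.14, 0.12, 0.07, 0.08 and 0.15. Mir17hg, host of the miR-17 cluster, was at 0.09 ± 0.13 (log2 fold change, SE), Pvt1, a neighbour of Myc, at 0.12 ± 0.15, and Oip5os1, which pairs with miR-7, at 0.02 ± 0.07. The 3 members of the list below 0 were Epb41l4aos at -0.14 ± 0.16, Norad (2900097C17Rik), which binds Pumilio proteins, at -0.10 ± 0.05, and Mirg at -0.002 ± 0.093. Miat, at 0.15 ± 0.28, and Dubr, at 0.07 ± 0.19, complete the list.

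Over all 1186 members the median log2 fold change was -0.14, with quartiles of -0.27 and -0.01, and 910 members (76.7%) were below 0. Over all features tested the median was 0.01 and 48.5% were below 0. Of the other gene types at 1 CPM or more, the 701 antisense RNAs had a median of -0.12 with 73.6% below 0 and the 196 features of the provisional class TEC had -0.12. The 98 piRNA clusters had 0.06, the 95 noncoding RNAs of bidirectional promoters -0.04 and the 14070 protein coding genes 0.02, with 42.0% of the coding genes below 0. Without WLA/+ library 1 the piRNA median was -0.01, so that its sign rests on that library. A median below 0 of similar size was thus also seen in antisense and TEC transcripts, and nothing here sets lincRNAs apart from them. Restricting the members to the 840 with a RefSeq lncRNA entry left the median at -0.14.

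**Figure D4:**
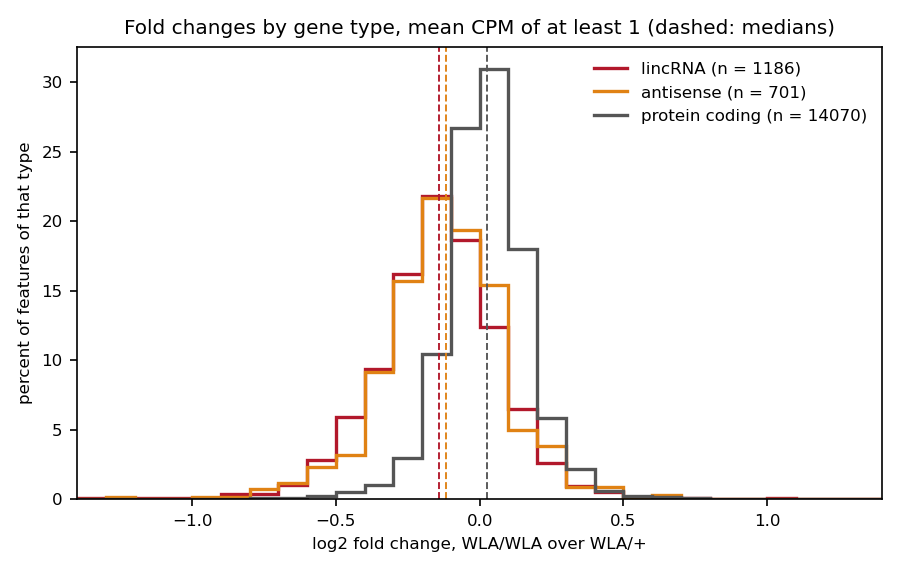
Distribution of log2 fold changes, WLA/WLA over WLA/+ (x axis, steps of 0.1), as percent of the features of each type (y axis), for lincRNA members (red), antisense RNAs (orange) and protein coding genes (grey) with a mean CPM of at least 1. The dashed medians stand at -0.14, -0.12 and 0.02, and the lincRNA and antisense curves nearly coincide.

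The median was similar at all levels. It was -0.16 for the 373 members of 1 to 2 CPM, -0.14 for the 396 of 2 to 5 CPM, -0.14 for the 199 of 5 to 10 CPM and -0.13 for the 218 of 10 CPM or more. In the highest bin 188 members (86.2%) were below 0, while protein coding genes of the same bin had a median of 0.01. The size of the shift did depend on the libraries. Without WLA/+ library 1 the median over members was -0.21 with 83.7% below 0, and without WLA/+ library 3 it was -0.09 with 68.5% below 0. Protein coding medians in those fits were 0.04 and 0.02. The pooled SD of the library medians within a genotype was 0.09 on the log2 scale, of the same order as the shift itself.

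Members also differed in how far libraries of a genotype spread. The SD of log2 levels within a genotype had a median of 0.16 over all members, 0.21 over those of 1 to 2 CPM and 0.10 over those of 10 CPM or more. At 10 CPM or more the widest spreads, picked after seeing the values, were 0.80 for Bc1, 0.37 for Gm14145, 0.36 for Malat1, 0.29 for Gm29825 and 0.28 for 4930509G22Rik. Gm29825, protein coding in RefSeq, had 83.5, 89.9 and 57.7 CPM in WLA/WLA testis and 74.6, 101 and 91.6 CPM in WLA/+ testis. Gm14145 had 18.9, 19.3 and 11.0 CPM in WLA/WLA testis and 15.5, 20.0 and 22.0 CPM in WLA/+ testis. In both, WLA/WLA library 3 was the lowest of the 6.

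A promoter in RefSeq was found for 707 members. Their median was 4 CpG dinucleotides in 300 bases and 48.3% GC, against 20 CpG and 60.3% GC for the promoters of 11194 protein coding genes at 1 CPM or more, and 7 CpG and 52.7% GC over all 27025 promoters. Coding promoters of broadly used genes usually lie in CpG islands, while many germ cell promoters do not. The lincRNA fold changes were ordered by CpG count. Medians were -0.16 for 268 members with 0 to 2 CpG, -0.15 for 249 with 3 to 7, -0.08 for 112 with 8 to 14 and -0.04 for 78 with 15 or more, and 83.2% and 60.3% of members were below 0 in the lowest and highest classes. Protein coding genes showed the same order at higher values, with medians of -0.05, -0.01, 0.02 and 0.03. Antisense RNAs showed it as well, with medians of -0.20, -0.14, -0.12 and -0.07, so the order is not particular to lincRNAs. Without WLA/+ library 1 the member medians were -0.24, -0.22, -0.16 and -0.05, and without WLA/+ library 3 they were -0.11, -0.10, -0.02 and -0.02.

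**Figure D5:**
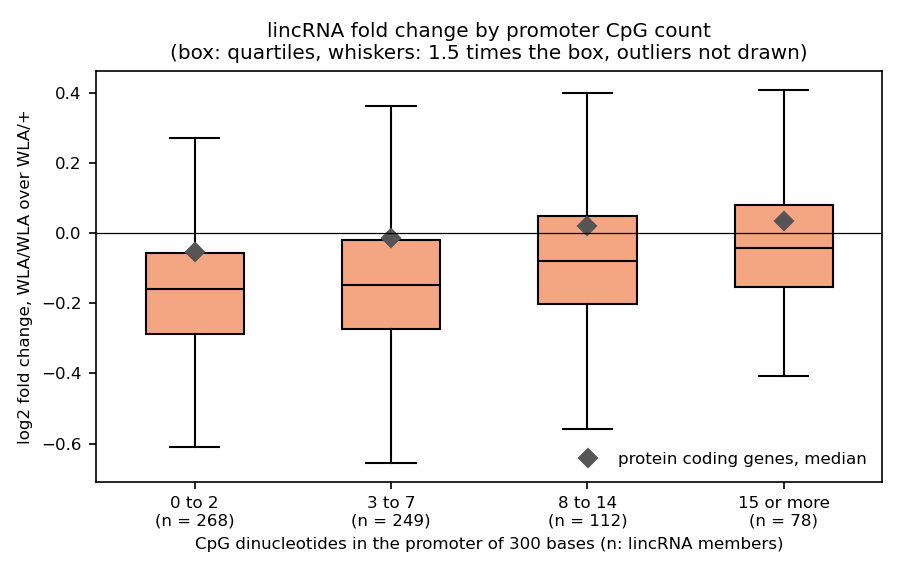
Log2 fold changes of the 707 members with a RefSeq promoter (y axis, WLA/WLA over WLA/+) by the number of CpG dinucleotides in 300 bases (x axis); boxes show quartiles with the median as a line, whiskers reach 1.5 times the box, and outliers are not drawn. Member medians run -0.16, -0.15, -0.08 and -0.04 from the lowest to the highest class, below the protein coding medians (diamonds) in each.

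Motifs were counted on both strands of the same windows as plain strings, and a string is a description of the letters and no evidence of binding. TAACNG, the core read by MYB factors, was in 34.1% of member promoters, 23.2% of all promoters and 19.6% of coding ones. GTTGCC, a part of the X box read by RFX factors, was in 17.8%, 12.7% and 13.7% of these sets. TGACGTCA, the cAMP response element, was in 3.25% of member promoters, 1.88% of all and 3.14% of coding ones. TATAAA was in 16.1% of member promoters, 14.2% of all and 7.24% of coding ones, and GGGCGG, the GC box, in 16.5%, 35.9% and 60.7%. None of these strings contains another. Of the promoters printed above, those of 1700063H04Rik and AY702103 hold TAACNG and TATAAA, that of Gm34549 holds TAACNG, that of Mir670hg holds TATAAA, and that of C030037D09Rik holds TGACGTCA and GGGCGG.

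Positions came from RefSeq. The 719 members whose nearest protein coding gene was tested lay a median of 35320 bases from it. Across these pairs the Spearman correlation of the 2 log2 fold changes was -0.013, and it was 0.16 over the 169 pairs within 5 kb, given as descriptions of pairs measured in the same 6 libraries. In the closer pairs the median log2 fold change was -0.10 for the members and 0.00151 for the coding genes. The spans overlap in 57 of these 169 closer pairs. Of the 862 members with a RefSeq position, the spans of 64 overlap that of a coding gene, and reads of such pairs cannot be told apart without the strand.

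Chromosomes are known only for the 862 members with a RefSeq position, and the other 324 are left out here. Chromosome 18, which holds Ythdc2 at chr18:44827730-44889720, had 24 such members with a median of -0.25, and 22 were below 0. None of the 24 passed the edgeR test, and DESeq2 called 1 of them, Gm30889. With edgeR 9 had an unadjusted p under 0.05, beside 271 of all members (22.8%) and 13.2% of all features. With WLA/+ library 1 left out, the median was -0.295 and edgeR called 5 of the 24 (20.8%), beside 15.9% of all members and 8.37% of all features. These were Gm30889, 1700044K03Rik, Gm33674, Gm33948 and 4933434P08Rik, all lower in WLA/WLA testis. In the same edgeR fit 16 of the 24 had an unadjusted p under 0.05, beside 38.7% of all members and 24.4% of all features. Of the 12 within 20 Mb of Ythdc2, 11 were below 0 with a median of -0.28. The other 12 on the chromosome also had 11 below 0, with a median of -0.20. The largest difference near Ythdc2 was that of 1700044K03Rik, 4.63 Mb away, at -0.68 ± 0.20 (SE; edgeR adjusted p = 0.202). It had 0.844, 0.934 and 0.853 CPM in WLA/WLA testis and 1.14, 1.40 and 1.70 CPM in WLA/+ testis, with no overlap. Next came Gm33948 at -0.49, Gm33674 at -0.44, 4930527G23Rik at -0.36, 4933434P08Rik at -0.30 and Gm31205 at -0.29. 1700066O22Rik was at -0.27, Gm29860 at -0.24, Gm26717 at -0.20 and 2010110K18Rik at -0.18, while 4930578E11Rik alone was above 0, at 0.08. Epb41l4aos, given above, is the other one of the 12. The RefSeq span of 4930527G23Rik lies inside that of 4930578E11Rik, so their reads cannot be told apart without the strand. On the X chromosome 10 members had a median of -0.10, and over the autosomes other than chromosome 18 medians ran from -0.20 on chromosome 4 to -0.09 on chromosome 9.

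With all libraries no marker of a testis cell type passed the edgeR test or that of DESeq2. An unadjusted p under 0.05 was found for 12 of the 65 markers tested with edgeR, beside 13.2% of 22446 features. With DESeq2 it was found for 8 of 69 markers, beside 4.94% of 39839 features. The DESeq2 set was not filtered for low counts, so the shares over all features are not alike. Once WLA/+ library 1 was left out, edgeR called 10 of the 65 (15.4%), beside 8.37% of all features. Those lower in WLA/WLA testis were the round spermatid markers Acrv1 and Zpbp, with log2 fold changes of -0.25 and -0.17. Those higher were 4 Leydig markers (Cyp11a1, Cyp17a1, Hsd3b1 and Insl3), 2 macrophage markers (Cd74 and Lyz2), Cldn11 of Sertoli cells and Stra8 of spermatogonia, with log2 fold changes of 0.29 to 1.78. With all libraries the macrophage markers had a median log2 fold change of -0.10. Their summed level was 102 CPM in WLA/+ library 1, the one left out. It was 33.2 and 26.4 CPM in WLA/+ libraries 2 and 3. Round spermatid markers were below 0 for 7 of 8 with a median log2 fold change of -0.09, and their summed level was 1693 to 1771 CPM in WLA/WLA testis and 1756 to 1866 CPM in WLA/+ testis. By library, the median deviation of these 8 markers was -0.02, -0.04 and -0.08 in WLA/WLA testis and -0.02, 0.07 and 0.10 in WLA/+ testis. Spermatocyte markers deviated by -0.02, -0.01 and 0.04 in WLA/WLA testis and by -0.04, 0.05 and -0.04 in WLA/+ testis. For elongating spermatid markers the values were -0.03, 0.02 and 0.02 in WLA/WLA testis and 0.04, -0.08 and 0.09 in WLA/+ testis. The genotypes overlapped in both of these lists. All 6 Leydig cell markers were above 0 with a median of 0.31, and summed to 427 to 496 CPM in WLA/WLA testis and 263 to 414 CPM in WLA/+ testis. They deviated by 0.43, 0.15 and 0.15 in WLA/WLA testis and by 0.11, -0.05 and -0.68 in WLA/+ testis, lowest in WLA/+ library 3. All 8 Sertoli cell markers were above 0 too, with a median of 0.15 and a summed level of 1053 to 1084 CPM in WLA/WLA testis and 934 to 1089 CPM in WLA/+ testis. Sertoli markers deviated by 0.03, 0.07 and 0.10 in WLA/WLA testis and by 0.11, -0.13 and -0.18 in WLA/+ testis. WLA/+ library 1 was on the side of the homozygous libraries in the Sertoli markers, but not in every list. Macrophage markers deviated by 0.31, -0.14 and -0.17 in WLA/WLA testis and by 0.63, -0.26 and -0.65 in WLA/+ testis. Peritubular myoid markers deviated by 0.15, 0.11 and 0.02 in WLA/WLA testis and by -0.09, -0.01 and -0.14 in WLA/+ testis. Of the remaining lists, 7 of 8 spermatogonial, 6 of 10 spermatocyte, 3 of 7 elongating spermatid, 4 of 4 peritubular myoid, 2 of 5 macrophage, 3 of 4 endothelial and 3 of 5 red blood cell markers were above 0. Epididymis markers summed to at most 0.166 CPM in any library. The part of cell composition in the lincRNA differences was not tested.

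In juvenile testis the members could not be followed. The authors' deposited tables of total RNA and ribosome footprints list 15145 genes at day 8 and 14846 at day 10, of which 15124 and 14829 are protein coding in the adult annotation, and 0 of the 1186 members are among them.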

How the data were processed

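Total RNA of whole adult testis was sequenced after removal of ribosomal RNA or selection for poly(A); the protocol in the labels leaves the choice for each library unsaid. STAR, mm10 and DESeq2 are named in the submitters' processing notes, with no versions; counting program and strand setting: not given in the sources used here. In the adult table the authors deposited raw counts of reads for 55566 features in 6 libraries, and beside them the authors' own log2 fold changes and adjusted p-values. The tables for juvenile testis, also deposited with log2 effects and p-values, were searched for members only.

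Counts were filtered with filterByExpr, scaled by TMM (factors 0.985 to 1.01) and tested with edgeR 4.0.16 in R 4.3.3 (quasi-likelihood, no covariate, Benjamini-Hochberg over 22446 features, threshold 0.05). The biological coefficient of variation was 6.77%. DESeq2 1.42.0, other scalings, no filter, other member thresholds, each library left out and members with RefSeq lncRNA entries only (chosen after seeing the data) were alternatives. CPM divides by the column sum, with TMM factors applied for deviations and for single members by library or genotype. Deviations used a pseudocount of 0.1 CPM. Depth was 33331987 reads or more per library, and a member had at least 20 reads. Positions, promoters and microRNAs are RefSeq GRCm38.p6, matched by symbol. Python 3.11.15 with pandas 2.3.3 did the rest, and matplotlib 3.10.9 the figures.

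Members named were those past the threshold, the 12 with most reads, those on the list of known lincRNAs, the 5 largest uncalled differences on each side without overlap, those within 20 Mb of Ythdc2 and those at the member threshold. The members, the lists and the tests were chosen with earlier results of these data known. A test of the share of counts in members, planned at first, was not made, since it would be a p-value for a score over chosen members.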

Additional observations from a re-analysis of the deposited data

How the results depend on the processing

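No paired analysis was possible because the adult columns carry no animal number and the animal numbers of the labels are not shared between the genotypes. The counts of calls depended most on the libraries and on the filter. With 1 library left out, between 0 and 188 members and between 3 and 1917 features of any type passed; the highest counts came without WLA/+ library 1 and the lowest count of features without WLA/WLA library 1. The count of members was 0 (edgeR) without any one of the WLA/WLA libraries or without WLA/+ library 2, where 161 to 209 members had an unadjusted p under 0.05, against 271 with all libraries. Without a filter on low counts 64 members (5 higher, 59 lower) and 595 features passed, with DESeq2 29 members and 194 features, and at an adjusted p of 0.1 27 members and 159 features. The number of features tested without the filter is not given here, so the 64 cannot be set beside a share of all features. The causes of these changes in the counts were not tested. Other scalings, other member thresholds, RefSeq lncRNA entries only and leaving out piRNA cluster rows kept the count of members within 1.5 times. The median over members stayed below 0 in every alternative run, from -0.21 to -0.09 with 1 library left out.

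Among named members, only ones that did not pass the test turned sign. C030037D09Rik was at -0.001729 with DESeq2's size factors and -0.001825 without a filter, Gm5922 at 0.002145 and Mirg at 0.007155 with plain library totals. With 1 library left out the ranges were -0.08747 to 0.05244 for 1700009J07Rik, -0.03819 to 0.03415 for C030037D09Rik, -0.06289 to 0.174 for Dubr, -0.09997 to 0.02024 for Gm2762 and -0.1573 to 0.05858 for Gm40348. They were -0.05157 to 0.06635 for Gm5922, -0.1282 to 0.2805 for Malat1, -0.1853 to 0.2221 for Meg3, -0.1536 to 0.3287 for Miat and -0.03501 to 0.249 for Mir17hg. For the others they were -0.05126 to 0.09328 for Mirg, -0.004572 to 0.05381 for Oip5os1, -0.02155 to 0.1082 for Rbakdn, -0.05418 to 0.2937 for Snhg15 and -0.02108 to 0.1441 for Snhg18. The SD of log2 levels within a genotype had a median of 0.21 at 1 to 2 CPM and 0.10 at 10 CPM or more.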
